A study of Mus musculus with 16 samples.

Results

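Genes of the signals that stromal cells send to the osteoclast lineage were followed in bone marrow stromal cell (BMSC) cultures, namely Tnfsf11, Tnfrsf11b, Tnfrsf11a, Csf1, Il34 and Csf1r. They were taken by name and are 6 of the 32285 genes counted. The ligands and the decoy receptor were read mainly in stromal-like cells and the receptors mainly in myeloid-like cells, in each tagged culture of 4 genotypes.

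Tnfsf11 encodes RANKL, a membrane-bound or shed ligand of the tumor necrosis factor family that bone-lineage cells present to osteoclast precursors. Its receptor RANK, encoded by Tnfrsf11a, activates NF-κB, AP-1 and NFATc1 and drives precursor fusion and the osteoclast program. Osteoprotegerin (OPG), encoded by Tnfrsf11b, is a secreted decoy that binds RANKL and keeps it from RANK. CSF1 (also M-CSF) and IL34 are separate ligands of the tyrosine kinase receptor CSF1R, which sustains the survival and proliferation of monocytes, macrophages and osteoclast precursors.

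Single-cell RNA-Seq was measured after 21 days of culture in osteogenic medium with β-glycerophosphate and ascorbic acid, on BMSC from 12-week-old male littermates of the C57BL/6J background. All genotypes carried the floxed Fgf23 allele. WT cells were Dmp1+/+ Fgf23fl/fl without Cre. Fgf23cKO cells were Fgf23fl/fl with a Dmp1-cre transgene, which is expressed mainly in osteocytes and mature osteoblasts, so that other cells of these cultures keep Fgf23. Dmp1KO cells lacked Dmp1 in all cells and carried no Cre, and Dmp1KO/Fgf23cKO cells combined both changes. For each genotype 3 cultures were tagged, pooled and run in 1 droplet reaction, so effects of genotype and of the reaction cannot be told apart. Here 11 tagged cultures were compared, 3 of each genotype but 2 of Dmp1KO, whose culture 1 was not analysed here. Untagged cells of each pool make up a further sample per genotype, which is shown beside the cultures and entered no test.

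The 15 samples held 17793 cells, 14577 of them tagged. Depth differed between genotypes. The median number of unique molecular identifiers (UMIs) per cell was 7137 to 7276 in WT, 29753 to 34988 in Fgf23cKO, 20017 to 22186 in Dmp1KO and 32378 to 33881 in Dmp1KO/Fgf23cKO cultures. Levels are given as CPM, the UMIs of a gene scaled to the summed UMIs of the same cells. Dmp1 itself was at 27.3 to 108 CPM over all cells of WT and 7.55 to 65.0 CPM of Fgf23cKO cultures, at 0 to 0.0477 CPM in Dmp1KO and at 1.32 to 2.16 CPM in Dmp1KO/Fgf23cKO. Fgf23, the other targeted gene, had 0 to 8 UMIs in any culture, which is too few to check its deletion. The 8 UMIs were in Fgf23cKO culture 1, against 0 to 5 in WT cultures. Of 17758 barcodes, 35 (0.197%) occurred in more than 1 sample, and 0 of these in samples of the same genotype.

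Cells were clustered without the 6 genes and clusters were named from marker lists. Stromal-like cells comprised osteoprogenitor-like, pre-osteoblast-like and osteoblast/osteocyte-like clusters, and formed 3.37 to 8.62% of the cells of WT, 6.65 to 10.4% of Fgf23cKO, 2.83 to 4.21% of Dmp1KO and 8.88 to 14.2% of Dmp1KO/Fgf23cKO cultures. Most other cells were myeloid-like, and 289 cells of all samples were osteoclast-like. Classes were not made up alike. Osteoblast/osteocyte-like cells were 40.1% of the stromal-like cells in WT but 21.3% in Fgf23cKO, 5.08% in Dmp1KO and 23.1% in Dmp1KO/Fgf23cKO. Among myeloid-like cells, cluster 0 (led by Marco and Maf) held 75.1% in WT, cluster 1 (led by Egr3 and F13a1) 43.7% in Fgf23cKO and 70.8% in Dmp1KO/Fgf23cKO, and clusters 2 (Itgax, Mfge8, Mmp12), 3 (Cd74, H2-Ab1) and 4 (Trib3, Ddit3) 28.7%, 23.8% and 17.6% in Dmp1KO.

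In the mm10 (GRCm38) genome, with positions from GENCODE M21, Tnfsf11 lies at chr14:78277445-78308043, Tnfrsf11b at chr15:54250619-54278484, Tnfrsf11a at chr1:105780718-105847981, Csf1 at chr3:107741048-107760469, Il34 at chr8:110741829-110805924 and Csf1r at chr18:61100598-61132149. Tnfrsf11a and Csf1r are on the plus strand and the other genes on the minus strand. All are protein-coding genes, and the kit counts reads near their 3′ ends.

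Tnfsf11 and Tnfrsf11b came almost wholly from stromal-like cells, whereas Csf1 and Il34 were more widely counted. Of 354 Tnfsf11 UMIs over all cells, 341 (96.3%) were in pre-osteoblast-like cells, where 50 of 418 cells (11.96%, exact 95% interval 9.01 to 15.5%) had a UMI. Tnfrsf11b UMIs, 980 in all, were split between pre-osteoblast-like (54.8%) and osteoblast/osteocyte-like cells (40.5%). Pre-osteoblast-like cells also held 61.9% of 21108 Csf1 UMIs and 63.9% of 908 Il34 UMIs, and 393 of the 418 had a Csf1 UMI. A further 25.1% of the Csf1 UMIs were in myeloid-like cells outside the cycling clusters, and 20.3% of the Il34 UMIs in unnamed cells. In 12968 myeloid-like cells, with a median of 19803 UMIs (52289 in pre-osteoblast-like cells), 6 cells (0.0463%) had a Tnfsf11 UMI, 17 (0.131%) a Tnfrsf11b UMI and 69 (0.532%) an Il34 UMI, but 2077 (16.0%) had a Csf1 UMI.

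**Figure D1:**
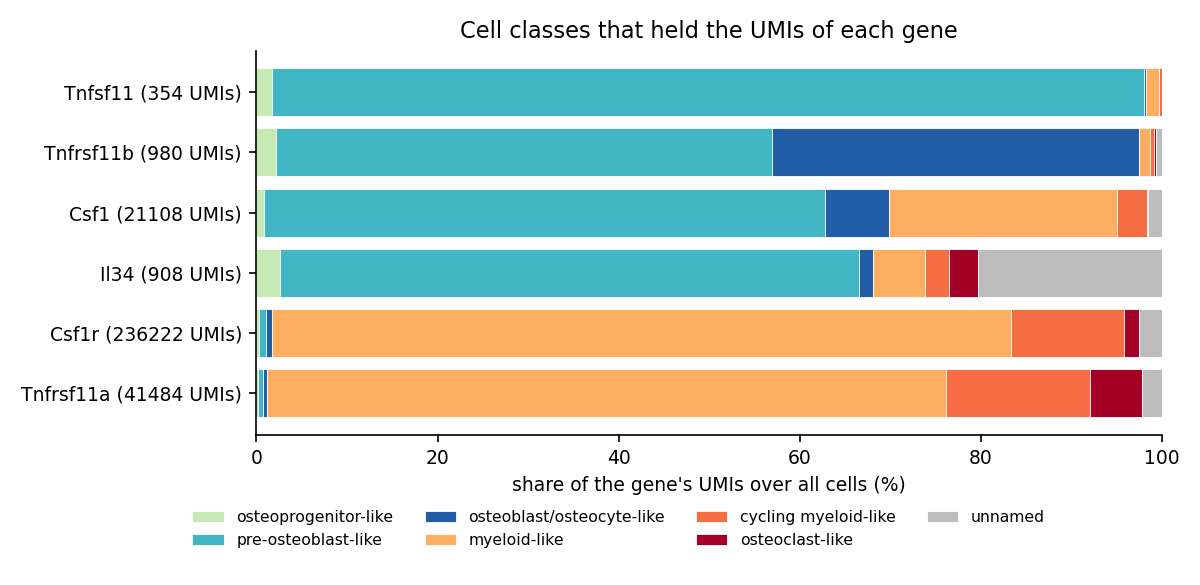
Share of all UMIs of each gene (percent, horizontal axis) that fell in each cell class, over tagged and untagged cells of all genotypes, with 1 stacked bar per gene. Tnfsf11 was at 96.3% in pre-osteoblast-like cells, Tnfrsf11b was split between pre-osteoblast-like and osteoblast/osteocyte-like cells, and Csf1r and Tnfrsf11a were mostly in myeloid-like cells.

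The receptors showed the reverse pattern. Myeloid-like and cycling myeloid-like cells held 81.6% and 12.5% of 236222 Csf1r UMIs, and 98.1% of all myeloid-like cells had one. They held 74.9% and 16.0% of 41484 Tnfrsf11a UMIs, and the osteoclast-like cells a further 5.71%. Tnfrsf11a was at 358 CPM in osteoclast-like cells and at 121 CPM in myeloid-like cells, whereas Csf1r was at 601 and 713 CPM. Csf1r and Tnfrsf11a were also counted in stromal-like cells, at 5.78 to 16.9% and 2.93 to 15.3% of their level in the myeloid-like cells of the same culture. The summed level of 11 myeloid markers stood at 6.42 to 15.2% there, so these counts were not read as expression by stromal cells.

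The effect of each deletion was tested on counts summed per tagged culture and class, with edgeR's quasi-likelihood test and Benjamini-Hochberg adjustment over all genes of the class (threshold 0.1). Changes are log2 fold changes with their SE. Dmp1KO was compared with WT for the loss of Dmp1, Fgf23cKO with WT for the loss of Fgf23 from late bone cells, Dmp1KO/Fgf23cKO with WT for both, and with Dmp1KO for the loss of Fgf23 where Dmp1 is already absent. The first 3 comparisons share the WT cultures.

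Tnfsf11 was sparse and no comparison in stromal-like cells passed the threshold. Its level in WT cultures 1 to 3 was 1.40, 12.05 and 2.94 CPM (2, 11 and 7 UMIs). Fgf23cKO cultures had 16.8, 8.96 and 0 CPM (77, 28 and 0 UMIs), and 1 cell held 94% of the UMIs of culture 1. The range of Fgf23cKO thus enclosed that of WT. In Dmp1KO cultures 2 and 3 Tnfsf11 was at 0.473 and 0.662 CPM, on 1 and 2 UMIs, and in Dmp1KO/Fgf23cKO at 1.55, 8.71 and 2.29 CPM (8, 58 and 8 UMIs). Both Dmp1KO values lay below every WT and every Dmp1KO/Fgf23cKO value, with a log2 change of -3.03 ± 1.74 (SE, n = 2 and 3; edgeR adjusted p = 0.258) against WT and 2.87 ± 1.60 (adjusted p = 0.325) for Dmp1KO/Fgf23cKO against Dmp1KO. The untagged cells stood at 6.77 CPM in WT, 16.7 in Fgf23cKO, 3.59 in Dmp1KO and 0.799 in Dmp1KO/Fgf23cKO, an order that differed from that of the tagged cultures. Fgf23cKO against WT was at 0.94 ± 1.05 (adjusted p = 0.637) and Dmp1KO/Fgf23cKO against WT at -0.15 ± 1.08 (adjusted p = 0.957). With these errors, differences of several fold were not detectable at this depth.

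Tnfrsf11b differed by less than the spread between cultures in all 4 comparisons. It was at 24.6, 12.05 and 15.1 CPM in the stromal-like cells of WT, 9.36, 30.1 and 8.69 CPM in Fgf23cKO, 8.98 and 24.2 CPM in Dmp1KO, and 12.8, 23.4 and 20.6 CPM in Dmp1KO/Fgf23cKO cultures, on 11 to 156 UMIs. The genotypes overlapped throughout. Log2 changes were -0.13 ± 0.59 in Dmp1KO, -0.15 ± 0.53 in Fgf23cKO and 0.05 ± 0.51 in Dmp1KO/Fgf23cKO against WT, and 0.18 ± 0.54 for Dmp1KO/Fgf23cKO against Dmp1KO (edgeR adjusted p from 0.895 to 0.973). The cells that held the transcript differed. Of the Tnfrsf11b UMIs of WT cultures 73.8% lay in osteoblast/osteocyte-like cells and 21.4% in the pre-osteoblast-like ones, whereas in Dmp1KO these shares were 8.25% and 80.4%, beside the smaller number of osteoblast/osteocyte-like cells. Within pre-osteoblast-like cells Tnfrsf11b was at 10.0, 7.88 and 8.65 CPM in WT, 7.39, 8.51 and 7.15 CPM in Fgf23cKO, 7.63 and 27.3 CPM in Dmp1KO, and 9.97, 15.9 and 23.0 CPM in Dmp1KO/Fgf23cKO. None of these comparisons passed the threshold either.

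The balance of RANKL to OPG transcripts is commonly read as their ratio. The log2 ratio of Tnfsf11 to Tnfrsf11b UMIs (with 0.5 added to each) in stromal-like cells was -3.83, 0 and -2.28 in WT cultures and 0.83, -1.73 and -5.13 in Fgf23cKO cultures. It was -3.70 and -4.88 in Dmp1KO, and -2.97, -1.42 and -3.09 in Dmp1KO/Fgf23cKO. Group means were -2.04 ± 1.93 (SD, n = 3) in WT, -2.01 ± 2.99 in Fgf23cKO, -4.29 ± 0.83 (n = 2) in Dmp1KO and -2.49 ± 0.93 (n = 3) in Dmp1KO/Fgf23cKO. The 2 Dmp1KO values fell below all 3 of Dmp1KO/Fgf23cKO, a difference of 1.80 with a two-sided exact permutation p of 0.1, the smallest that 2 against 3 cultures allow, and 0.4 after adjustment over the 4 comparisons. Against WT the differences were -2.25 for Dmp1KO (exact permutation p = 0.3), 0.03 for Fgf23cKO (exact permutation p = 1) and -0.46 for Dmp1KO/Fgf23cKO (exact permutation p = 0.8), and the cultures overlapped. Within pre-osteoblast-like cells, the 2 transcripts were seen together in 11 of the 50 cells with Tnfsf11 (22.0%), and Tnfrsf11b was seen in 28.3% of the other cells.

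Csf1 and Il34 were the members called in stromal-like cells. Csf1 was at 157, 151 and 136 CPM in WT cultures (138 to 325 UMIs). It was at 401, 314 and 367 CPM in Fgf23cKO, 218 and 295 CPM in Dmp1KO, and 368, 295 and 284 CPM in Dmp1KO/Fgf23cKO. All 8 mutant cultures lay above all 3 WT cultures, and the untagged cells had the same order relative to WT, with 111 CPM in WT, 398 in Fgf23cKO, 266 in Dmp1KO and 202 in Dmp1KO/Fgf23cKO. The log2 change against WT was 1.23 ± 0.15 in Fgf23cKO (edgeR adjusted p = 0.000908), 1.02 ± 0.15 in Dmp1KO/Fgf23cKO (adjusted p = 0.00142) and 0.69 ± 0.16 in Dmp1KO (adjusted p = 0.0145). Dmp1KO/Fgf23cKO and Dmp1KO cultures differed by 0.32 ± 0.16 (adjusted p = 0.268), and the cultures overlapped.

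Il34 was at 2.81, 1.10 and 3.77 CPM in the stromal-like cells of WT, on 4, 1 and 9 UMIs. It was at 12.6, 15.7 and 7.67 CPM in Fgf23cKO, 9.93 and 17.9 CPM in Dmp1KO, and 18.04, 14.4 and 9.16 CPM in Dmp1KO/Fgf23cKO cultures, on 15 to 96 UMIs. Again no mutant culture overlapped WT. Il34 rose by 2.01 ± 0.48 in Fgf23cKO (edgeR adjusted p = 0.0260), 2.16 ± 0.52 in Dmp1KO (adjusted p = 0.0154) and 2.17 ± 0.47 in Dmp1KO/Fgf23cKO (adjusted p = 0.0115), and Dmp1KO/Fgf23cKO and Dmp1KO differed by 0.01 ± 0.38 (adjusted p = 0.995). The members called upward were thus 2 of the 6 tested in each comparison with WT. Over all genes of stromal-like cells, 11.2% were called up and 13.6% down in Dmp1KO, 7.51% up and 7.84% down in Fgf23cKO, and 9.36% up and 10.7% down in Dmp1KO/Fgf23cKO. Between Dmp1KO/Fgf23cKO and Dmp1KO 0 of the 6 were called, with 6.05% of all genes up and 4.65% down.

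**Figure D2:**
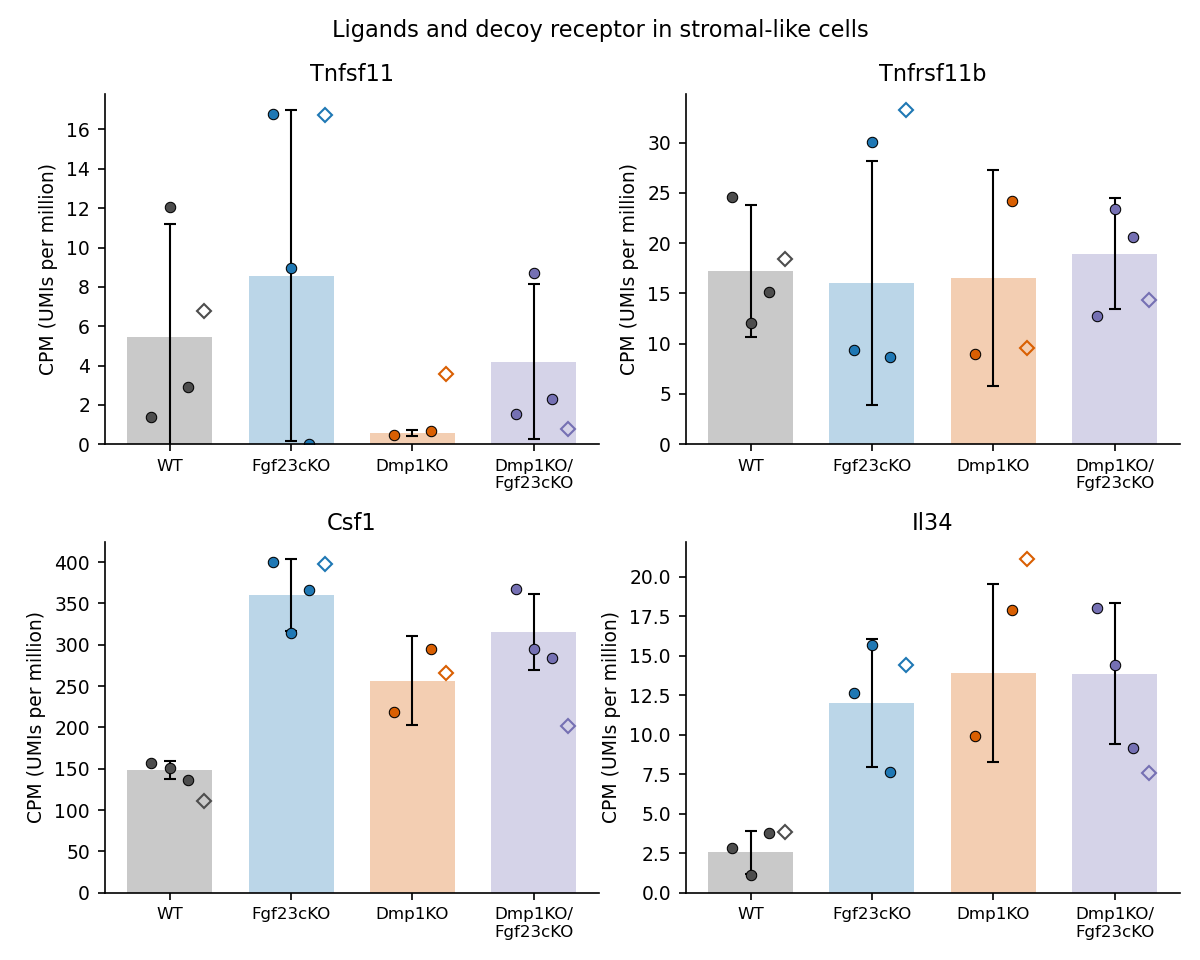
Level of Tnfsf11, Tnfrsf11b, Csf1 and Il34 in the stromal-like cells of each genotype, in CPM on a linear axis from 0. Filled points are tagged cultures, bars their mean, error bars the SD (drawn down to 0 at most) and open diamonds the untagged cells. Csf1 and Il34 points of the 3 mutant genotypes lie above all WT points. Tnfsf11 and Tnfrsf11b points overlap between genotypes, except that the Tnfsf11 points of Dmp1KO lie below those of WT and Dmp1KO/Fgf23cKO.

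The Dmp1KO call of Csf1 was lost under each alternative that follows here, and that of Il34 under each in which it was tested. In thinned cells the Csf1 calls of the other genotypes were lost as well. The Csf1 change in Dmp1KO was smaller in each, and that of Il34 similar where given. With osteoblast/osteocyte-like cells left out in all genotypes, the change in Dmp1KO was 0.10 (edgeR adjusted p = 0.810) for Csf1 and 1.73 (adjusted p = 0.106) for Il34. Without Dmp1KO culture 3, they were 0.44 (adjusted p = 0.177) and 1.63 (adjusted p = 0.142), where the single culture left is assumed to vary like those of the other genotypes. The Il34 level of that culture, 9.93 CPM, was above the 3 WT cultures. When all cells were thinned to 1300 UMIs, the stromal Csf1 changes were 0.28 in Dmp1KO (adjusted p = 0.683), 0.49 in Fgf23cKO (adjusted p = 0.496) and -0.18 in Dmp1KO/Fgf23cKO (adjusted p = 0.814), none past the threshold, on 4 to 31 UMIs per culture. With 7 UMIs over the thinned stromal-like cells of all samples, Il34 fell under the filter on low counts and was not tested there.

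Both CSF1R ligands were also compared within pre-osteoblast-like cells, their main stromal source. Differences in maturation within this class were not measured. In WT cultures Csf1 was at 283, 292 and 300 CPM in these cells. Fgf23cKO cultures were at 613, 474 and 455 CPM and Dmp1KO/Fgf23cKO cultures at 462, 519 and 382 CPM, all above WT, while the Dmp1KO cultures, at 266 and 357 CPM, lay on either side of WT. Csf1 rose by 0.86 in Fgf23cKO (edgeR adjusted p = 0.0119) and by 0.63 in Dmp1KO/Fgf23cKO (adjusted p = 0.0319), and was at 0.12 in Dmp1KO (adjusted p = 0.762). Of the Csf1 UMIs of Fgf23cKO culture 1 in this class, 745 came from 1 cell. Without the cell with most Csf1 UMIs in each culture, levels were 261 to 282 CPM in WT, 386 to 393 CPM in Fgf23cKO, 258 and 322 CPM in Dmp1KO and 283 to 422 CPM in Dmp1KO/Fgf23cKO.

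Il34 was at 5.71, 2.63 and 6.49 CPM in the pre-osteoblast-like cells of WT and at 21.4, 25.5 and 9.75 CPM in Fgf23cKO. Dmp1KO had 12.3 and 21.0 CPM and Dmp1KO/Fgf23cKO 27.1, 28.4 and 12.8 CPM, so that each mutant culture lay above WT. The change passed the threshold in Fgf23cKO (1.84, edgeR adjusted p = 0.0749) and Dmp1KO/Fgf23cKO (2.05, adjusted p = 0.0347) but not in Dmp1KO (1.64, adjusted p = 0.130). In this class 5.69% of all genes were called up in Dmp1KO, 5.81% in Fgf23cKO and 7.54% in Dmp1KO/Fgf23cKO. All 143 pre-osteoblast-like cells with an Il34 UMI also had a Csf1 UMI. Cells with Csf1 were deeper, with a median of 55711 UMIs against 13333 in those without, so depth moves with this overlap and its part was not tested.

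Osteoblast/osteocyte-like cells could be compared only between Dmp1KO/Fgf23cKO and WT. Csf1 was at 35.2, 56.2 and 18.7 CPM in WT and at 267, 93.3 and 101 CPM in Dmp1KO/Fgf23cKO, an increase of 2.10 ± 0.47 (edgeR adjusted p = 0.0252, with 5.59% of genes called up). Of the 403 Csf1 UMIs of Dmp1KO/Fgf23cKO culture 1 in this class, 245 came from 1 cell. Tnfrsf11b was at -0.11 in the same comparison (adjusted p = 0.895). In osteoprogenitor-like cells the only member called was Csf1r, at -1.51 in Fgf23cKO (adjusted p = 0.0700, with 7.69% of genes called down), and its level in stromal-like cells is that of the myeloid markers described above.

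Csf1r was lower in the myeloid-like cells of Dmp1KO than in those of any other genotype. Levels were 878, 872 and 832 CPM in WT, 872, 902 and 767 CPM in Fgf23cKO, 449 and 511 CPM in Dmp1KO, and 984, 974 and 942 CPM in Dmp1KO/Fgf23cKO. The untagged cells stood at 784, 883, 454 and 1070 CPM in the same order. Csf1r fell by 0.59 on the log2 scale in Dmp1KO (SE 0.067; edgeR adjusted p = 2.66e-06) and was at -0.04 in Fgf23cKO (adjusted p = 0.617). It was 0.13 higher in Dmp1KO/Fgf23cKO than in WT (SE 0.059, adjusted p = 0.0787), a call lost without any 1 of 5 of these 6 cultures. Against Dmp1KO, it was 0.72 higher in Dmp1KO/Fgf23cKO (SE 0.067, adjusted p = 4.89e-07). The normalization factors for library composition place all changes of Dmp1KO against WT in myeloid-like cells 0.26 above those of plain CPM, and those of Dmp1KO/Fgf23cKO against Dmp1KO 0.29 below. On plain CPM Csf1r was 0.84 lower in Dmp1KO than in WT.

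Tnfrsf11a moved with Csf1r in Dmp1KO. It was at 143, 136 and 134 CPM in the myeloid-like cells of WT, 175, 186 and 136 CPM in Fgf23cKO, 81.3 and 88.0 CPM in Dmp1KO, and 152, 148 and 145 CPM in Dmp1KO/Fgf23cKO. It fell by 0.44 in Dmp1KO (SE 0.091; edgeR adjusted p = 0.000632) and was 0.52 higher in Dmp1KO/Fgf23cKO than in Dmp1KO (SE 0.089, adjusted p = 0.000161). Fgf23cKO was 0.25 above WT (SE 0.083, adjusted p = 0.0241), which did not hold without Fgf23cKO culture 2 (0.16, adjusted p = 0.105). Dmp1KO/Fgf23cKO was at 0.07 against WT (adjusted p = 0.483).

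Csf1, counted mainly in stromal cells elsewhere, was at its highest myeloid level in Dmp1KO. It was at 8.30, 4.12 and 3.02 CPM in the myeloid-like cells of WT and 6.53, 6.33 and 5.43 CPM in Fgf23cKO, on 37 to 91 UMIs a culture. Dmp1KO cultures had 34.2 and 26.7 CPM (2385 and 1579 UMIs) and Dmp1KO/Fgf23cKO cultures 13.1, 14.1 and 14.8 CPM (382, 334 and 229 UMIs). The groups did not overlap except for WT and Fgf23cKO. Csf1 rose by 2.96 ± 0.21 in Dmp1KO (edgeR adjusted p = 2.49e-08) and by 1.53 ± 0.22 in Dmp1KO/Fgf23cKO (adjusted p = 6.01e-05) against WT. It was 1.42 lower in Dmp1KO/Fgf23cKO than in Dmp1KO (SE 0.16; adjusted p = 2.90e-06). Fgf23cKO was at 0.36 ± 0.26 (adjusted p = 0.288), and at 0.73 (adjusted p = 0.0169) without WT culture 1.

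Whether the change that came with loss of Fgf23 from late bone cells was alike with and without Dmp1 was tested as an interaction. This is the change from Dmp1KO to Dmp1KO/Fgf23cKO minus the change from WT to Fgf23cKO. With 1 droplet reaction per genotype, it cannot be told apart from differences between reactions. For Csf1r in myeloid-like cells the changes were 0.72 without and -0.04 with Dmp1, a difference of 0.76 ± 0.089 (edgeR adjusted p = 5.39e-06), and for Tnfrsf11a 0.52 and 0.25, a difference of 0.27 ± 0.12 (adjusted p = 0.0729). Myeloid-like Csf1 changed by -1.42 and 0.36, a difference of -1.79 ± 0.30 (adjusted p = 0.000175). In these cells 30.2% of all genes had an interaction called up and 34.6% down. In stromal-like cells Csf1 changed by 0.32 without and 1.23 with Dmp1 (difference -0.91 ± 0.22, adjusted p = 0.0213) and Il34 by 0.01 and 2.01 (difference -2.00 ± 0.62, adjusted p = 0.0603), beside 8.05% of genes called down. The myeloid differences turned or were near 0 in several single clusters. For Csf1 the interaction passed the threshold in no single cluster tested. It was at 0.58 in cluster 4, -0.16 in cluster 5, -1.86 in cluster 9 and -1.78 in cluster 10. In clusters 1 and 3 it was at -8.32 and -3.87, where WT cultures had 0 or 1 Csf1 UMI each. In clusters 1, 3, 4 and 5 the interaction was at -0.25, -0.23, -0.13 and -0.075 for Tnfrsf11a and at -0.011, -0.31, -0.15 and -0.13 for Csf1r, none past the threshold, whereas Csf1r was at 0.99 in cluster 9 and 0.86 in cluster 10 (adjusted p = 3.59e-05 and 0.00150). Tnfrsf11a was at 0.69 in cluster 9 (edgeR adjusted p = 0.0184) and at 0.088 in cluster 10 (adjusted p = 0.908). Within pre-osteoblast-like cells the differences were -0.34 for Csf1 (adjusted p = 0.488) and -1.43 for Il34 (adjusted p = 0.313).

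Among all genes of myeloid-like cells calls were common, so the number of members called says little. In Dmp1KO 1 of the 3 members tested was called up and 2 down, beside 36.0% and 34.4% of all genes. In Fgf23cKO 1 was called up, beside 25.9% up and 25% down, in Dmp1KO/Fgf23cKO 2 up, beside 28.7% and 29.4%, and in Dmp1KO/Fgf23cKO against Dmp1KO 2 up and 1 down, beside 29.7% and 38.3%. Tnfsf11, Tnfrsf11b and Il34 had 0 to 12 UMIs in the myeloid-like cells of a culture and did not pass the filter on low counts.

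**Figure D3:**
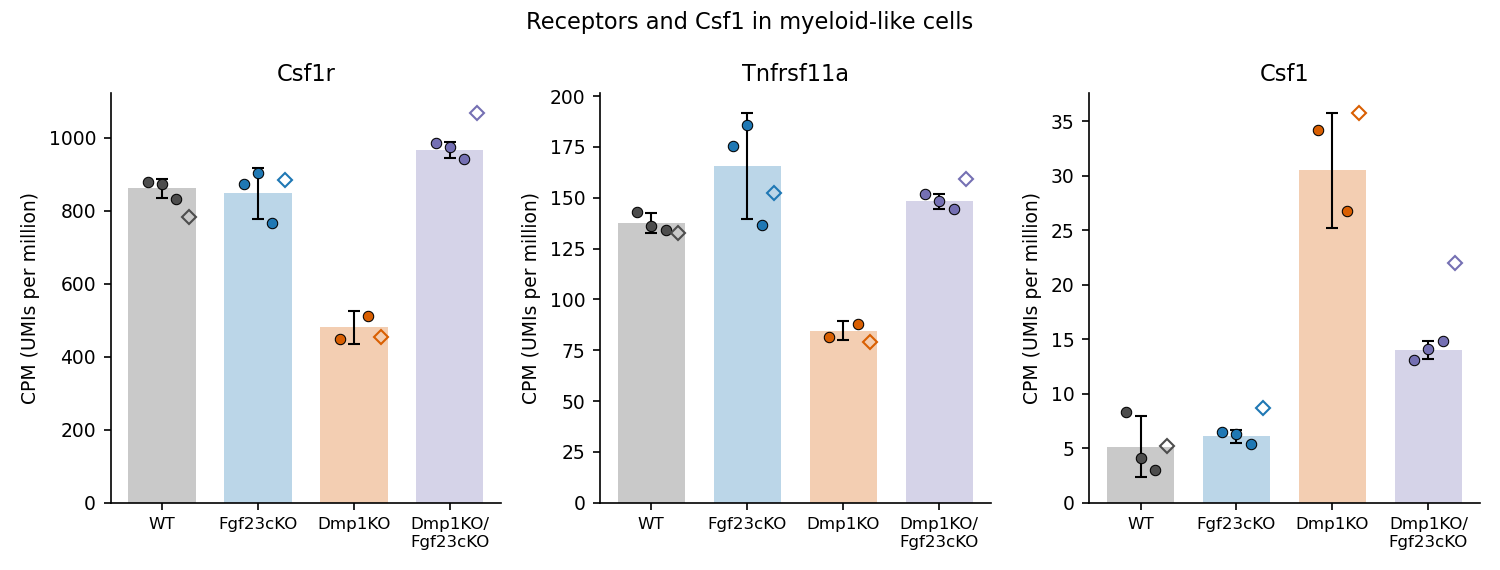
Level of Csf1r, Tnfrsf11a and Csf1 in myeloid-like cells by genotype, in CPM on linear axes from 0, with filled points for tagged cultures, bars for their mean, error bars for the SD and open diamonds for untagged cells. The 2 Dmp1KO points are the lowest of all tagged cultures for Csf1r and Tnfrsf11a and the highest for Csf1.

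Markers of stromal cells were also counted in myeloid-like cells, and the marker lists differed in how they stood in Dmp1KO. The summed level of 14 general stromal markers was lowest in Dmp1KO (77.5 to 78.1 CPM), against 132 to 142 CPM in WT, 217 to 226 CPM in Fgf23cKO and 368 to 378 CPM in Dmp1KO/Fgf23cKO. That of 9 pre-osteoblast markers was highest in Dmp1KO, as Csf1 was (50.9 to 54.9 CPM, against 33.4 to 36.3 in WT, 33.8 to 41.8 in Fgf23cKO and 43.4 to 46.4 in Dmp1KO/Fgf23cKO). None of the markers of these lists was at 0 in any culture. The 12 osteoblast/osteocyte markers, which include Spp1, a gene that macrophages also express, summed to 10157 to 12578 CPM in Dmp1KO and 1341 to 2028 CPM in the other genotypes, with at most 2 of them at 0. The part of stromal RNA in the myeloid-like Csf1 counts was not tested. A Csf1 UMI was found in 25.5% of the myeloid-like cells of Dmp1KO, against 2.61% in WT, 14.01% in Fgf23cKO and 19.5% in Dmp1KO/Fgf23cKO, at the depths given above. In Dmp1KO the cells with a Csf1 UMI had 94.3 CPM of stromal markers and those without had 70.1 CPM. These levels were 120 and 137 CPM in WT, 221.5 and 221.1 CPM in Fgf23cKO, and 383 and 372 CPM in Dmp1KO/Fgf23cKO. Csf1r was at 358 CPM in Dmp1KO cells with a Csf1 UMI and at 533 CPM in those without. It was at 727 and 863 CPM in WT, 807 and 849 CPM in Fgf23cKO, and 906 and 989 CPM in Dmp1KO/Fgf23cKO.

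The classes that held the Csf1 transcripts of a culture also differed by genotype. Myeloid-like cells held 83.4% and 63.7% of the Csf1 UMIs of the Dmp1KO cultures, but 10.1 to 26.8% in WT, 4.68 to 10.7% in Fgf23cKO and 14.5 to 18.6% in Dmp1KO/Fgf23cKO. Stromal-like cells held 16.2% and 35.9% in Dmp1KO and 67.3 to 88.3% in WT. The shares of Dmp1KO did not overlap with those of any other genotype.

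**Figure D4:**
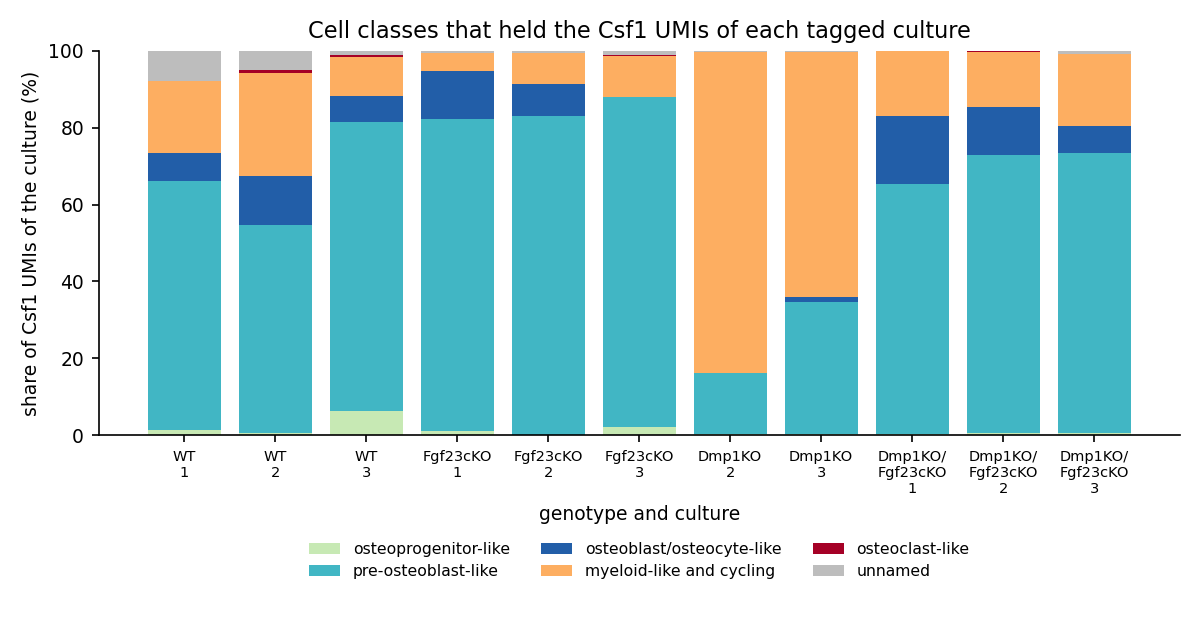
Share of the Csf1 UMIs of each tagged culture (percent, vertical axis) held by each cell class, with 1 stacked bar per culture. Myeloid-like cells hold 83.4% and 63.7% in the 2 Dmp1KO cultures and at most 26.8% in the other 9.

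Over all cells of a culture, where fewer cells of a type and less RNA per cell cannot be told apart, Csf1 rose by 1.16 in Dmp1KO (edgeR adjusted p = 0.0165), 1.54 in Fgf23cKO (adjusted p = 0.00469) and 1.56 in Dmp1KO/Fgf23cKO (adjusted p = 0.00337). Il34 was 2.24 higher in Fgf23cKO (adjusted p = 0.000439) and 1.57 higher in Dmp1KO/Fgf23cKO (adjusted p = 0.00291) than in WT, and was at -0.06 in Dmp1KO (adjusted p = 0.907). Of the 264 Il34 UMIs of the Fgf23cKO cultures, 122 were in stromal-like cells. A further 79 were in 24 cells of cluster 17, which was left unnamed, in culture 3. Compared with Dmp1KO, the whole cultures of Dmp1KO/Fgf23cKO had more Tnfsf11 (4.32, adjusted p = 0.0467, on 4 UMIs in both Dmp1KO cultures together), Tnfrsf11b (1.92, adjusted p = 0.0730) and Il34 (1.62, adjusted p = 0.00176), beside their larger share of stromal-like cells. Csf1r and Tnfrsf11a were 0.42 and 0.23 higher (adjusted p = 0.00117 and 0.0632). They had fallen by 0.37 and 0.40 in Dmp1KO against WT (adjusted p = 0.00224 and 0.00559). In whole cultures 32.5% of genes were called up and 32.0% down in Dmp1KO, 21.7% up in Fgf23cKO, 24.5% up in Dmp1KO/Fgf23cKO, and 27.2% up in Dmp1KO/Fgf23cKO against Dmp1KO.

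Because different clusters made up the myeloid-like class in each genotype, receptor levels were also compared within clusters with at least 10 cells in a culture. Differences in cell state between genotypes within a cluster, the cycling ones included, were not measured. In cluster 9, which is cycling, Csf1r was at 688, 782 and 731 CPM in WT, 335 and 331 CPM in Dmp1KO and 926, 848 and 827 CPM in Dmp1KO/Fgf23cKO. It was at -0.90 in Dmp1KO against WT (edgeR adjusted p = 1.84e-06) and 1.14 in Dmp1KO/Fgf23cKO against Dmp1KO (adjusted p = 2.04e-07). In cluster 10, also cycling, it was at -0.75 (adjusted p = 0.000170) and 0.86 (adjusted p = 4.12e-05). In clusters 1, 3, 4 and 5, in contrast, Csf1r changed by 0.06, 0.13, 0.64 and -0.05 in Dmp1KO, none past the threshold. Cluster 2, with 301 CPM of Csf1r over all samples, was made up almost wholly of Dmp1KO cells and could not be compared with WT, and cluster 0, with 933 CPM, of WT cells.

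Tnfrsf11a was lower in cluster 9 of Dmp1KO (-1.19, edgeR adjusted p = 1.17e-05), with 79.3 and 82.4 CPM against 186 to 246 CPM in WT, and was at -0.33 in cluster 10 (adjusted p = 0.395). It was higher in Dmp1KO/Fgf23cKO than in Dmp1KO in both (0.79, adjusted p = 0.000727, and 0.66, adjusted p = 0.0505). Csf1 was at 23.2 and 22.2 CPM in cluster 9 and at 24.3 and 16.5 CPM in cluster 10 of Dmp1KO, and at 0.789 to 2.59 CPM and 0 to 1.78 CPM in WT, on 0 to 3 UMIs per WT culture. Both differences passed the threshold (edgeR adjusted p = 0.000126 and 0.000456). It also rose by 1.00 in cluster 5 (adjusted p = 0.0583), and did not pass in cluster 4 (-0.47, adjusted p = 0.782) or cluster 3 (adjusted p = 0.189), where Dmp1KO cultures were at 30.2 and 18.2 CPM and WT cultures had 1 UMI in all. In these tests of Dmp1KO, 21.9% of genes were called up and 22.4% down in cluster 9, 20% up and 17.8% down in cluster 10, and 10.5% up in cluster 5.

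In Dmp1KO/Fgf23cKO against Dmp1KO, Csf1 was lower in cluster 3 (-2.92, edgeR adjusted p = 0.00749), cluster 5 (-1.07, adjusted p = 0.0602), cluster 9 (-1.84, adjusted p = 0.00273) and cluster 10 (-1.52, adjusted p = 0.0105). It did not pass in cluster 4 (-0.72, adjusted p = 0.384) or in cluster 1 (0.37, adjusted p = 0.154), which held 70.8% of the myeloid-like cells of Dmp1KO/Fgf23cKO and where its sign was the opposite. Here 19.2% of genes were called up and 18.8% down in cluster 9, 14.2% up and 19.7% down in cluster 10, 2.04% down in cluster 3 and 4.28% down in cluster 5. In cluster 5 of Fgf23cKO, Csf1r was 0.33 and Tnfrsf11a 0.57 higher than in WT (adjusted p = 0.00145 and 0.00624) and Csf1 was at -0.91 (adjusted p = 0.0529), where 16.0% of genes were called up and 17.9% down.

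**Figure D5:**
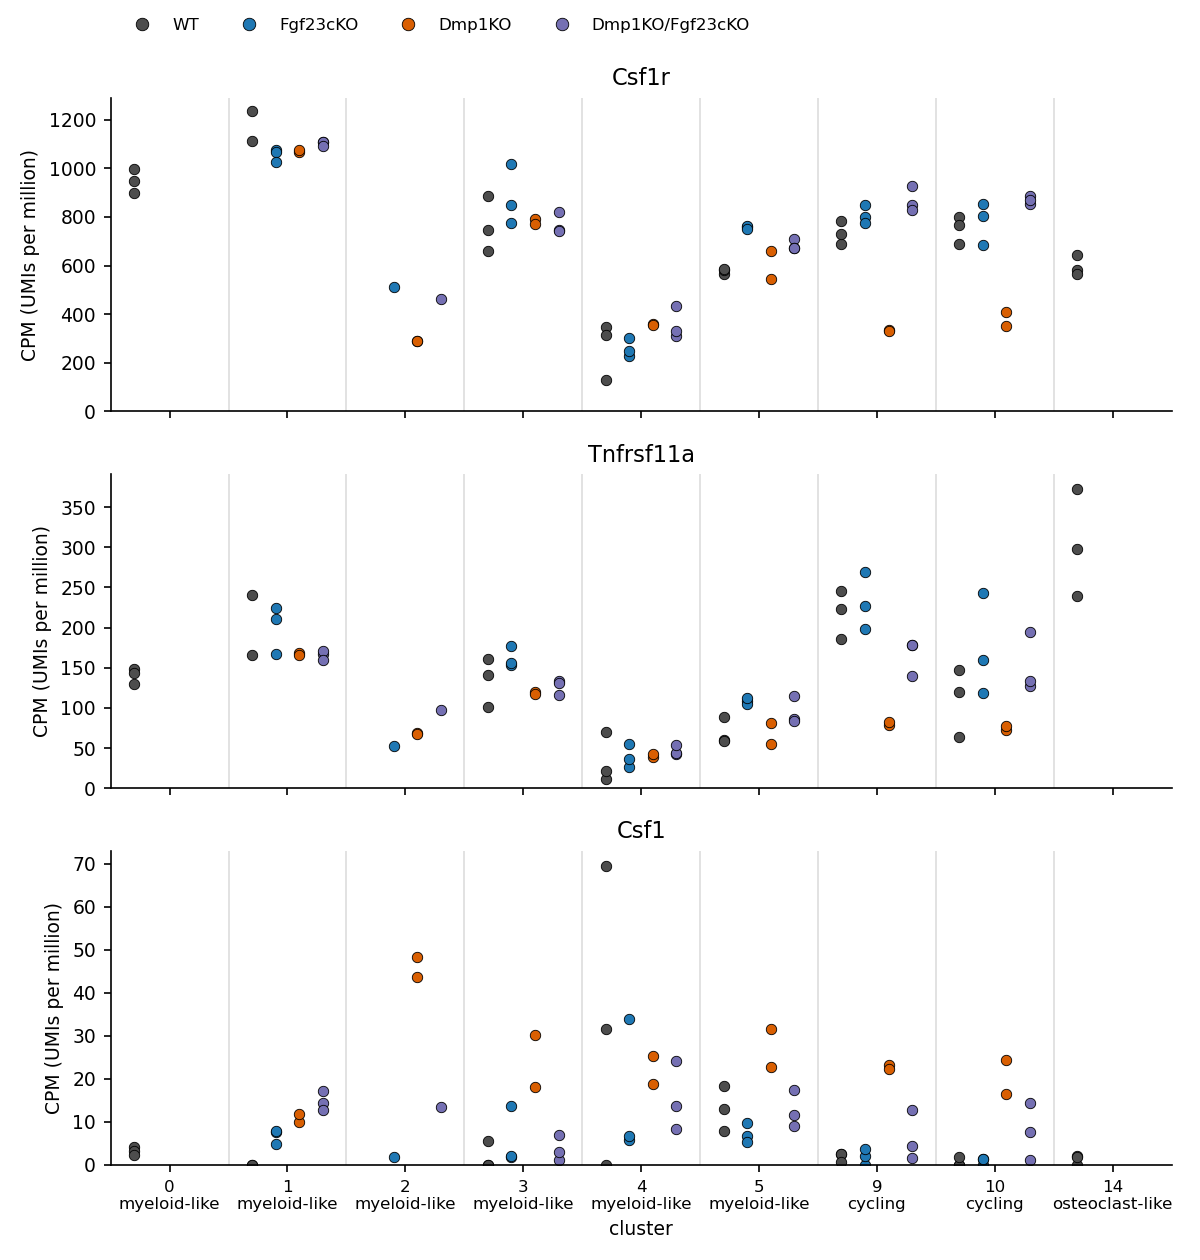
Csf1r, Tnfrsf11a and Csf1 (CPM, linear axes from 0) in single myeloid clusters (horizontal axis), with 1 point per tagged culture that had at least 10 cells in the cluster, colored by genotype. In the cycling clusters 9 and 10 the Dmp1KO points lie below the other genotypes for Csf1r, and above them for Csf1, whereas in clusters 1 and 3 the Csf1r points of the genotypes lie together.

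Osteoclast-like cells were too few for a test outside WT, with 55 to 77 cells per WT culture but 7 to 9 in Fgf23cKO, 3 to 4 in Dmp1KO and 3 to 6 in Dmp1KO/Fgf23cKO. In WT, Tnfrsf11a was at 239, 373 and 297 CPM and Csf1r at 581, 644 and 563 CPM. Across the other genotypes Tnfrsf11a ranged from 288 to 452 CPM and Csf1r from 480 to 890 CPM.

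Genes downstream of the receptors were read in myeloid-like cells from lists of pathway members, whose counts stand against the shares of all genes called there, 36.0% up and 34.4% down in Dmp1KO, 25.9% and 25% in Fgf23cKO, 28.7% and 29.4% in Dmp1KO/Fgf23cKO, and 29.7% and 38.3% in Dmp1KO/Fgf23cKO against Dmp1KO. Of 33 genes of RANK signaling, 31 passed the filter on low counts, of which 5 rose, 17 fell and 9 did not pass in Dmp1KO, with a median change of -0.13 against 0.000430 over all genes. In Dmp1KO/Fgf23cKO against Dmp1KO, 21 rose and 4 fell (median 0.27, against -0.06). The AP-1 subunits Fos (-0.84) and Fosl2 (-1.03) fell in Dmp1KO and the costimulatory receptor Trem2 (1.24) rose. Fosl2 was 0.82 higher in Dmp1KO/Fgf23cKO than in Dmp1KO, as was Relb, a subunit of the noncanonical NF-κB complex (0.89), while the kinase Src was lower (-0.89). Against WT, 9 rose and 6 fell in Fgf23cKO (median -0.0056) and 12 rose and 8 fell in Dmp1KO/Fgf23cKO (median 0.076), among those that rose Relb (0.52 and 1.00).

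Of 17 genes of CSF1R signaling, 7 rose and 9 fell in Dmp1KO (median -0.11), 8 rose and 3 fell in Fgf23cKO (median 0.037), and 10 rose and 5 fell in Dmp1KO/Fgf23cKO (median 0.16), with 7 up and 6 down in Dmp1KO/Fgf23cKO against Dmp1KO (median -0.017). The median over all genes lay between -0.06 and 0.00198 in the 4 comparisons. The adaptors Dok1 (0.97, 0.63 and 0.60) and Dok2 (0.93, 0.79 and 0.55) rose in Dmp1KO, Fgf23cKO and Dmp1KO/Fgf23cKO against WT, and Spi1, which encodes the transcription factor PU.1 that drives Csf1r, rose in Dmp1KO (0.83) and Dmp1KO/Fgf23cKO (0.59).

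Of 12 osteoclast genes tested, 5 rose and 5 fell in Dmp1KO (median -0.21), near the shares over all genes, and 4 rose and 5 fell in Dmp1KO/Fgf23cKO against Dmp1KO (median 0.038). The protease gene Mmp9 (-4.86) fell, and the integrin gene Itgb3 (2.70) and the fusion gene Dcstamp (2.70) rose in Dmp1KO. Against Dmp1KO, Dmp1KO/Fgf23cKO had more Mmp9 (3.75) and less Dcstamp (-3.55) and Ctsk (-2.54), which encodes cathepsin K. Against WT, 1 rose and 4 fell in Fgf23cKO (median -0.37), and 1 rose and 3 fell in Dmp1KO/Fgf23cKO (median -0.63). Of 4 repressors of osteoclast differentiation, 2 rose and 1 fell in Dmp1KO, 1 rose and 1 fell in Fgf23cKO, 2 rose and 1 fell in Dmp1KO/Fgf23cKO, and 2 rose and 2 fell in Dmp1KO/Fgf23cKO against Dmp1KO. Irf8 rose (0.35) and Id2 fell (-0.57) in Dmp1KO, and Bcl6 was higher in Dmp1KO/Fgf23cKO than in WT (0.45) and Dmp1KO (0.52). The summed level of 8 osteoclast markers in myeloid-like cells was 854 to 952 CPM in Dmp1KO and 213 to 372 CPM in the other genotypes.

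Genes that bind or regulate RANKL and OPG were read in stromal-like cells, where 11.2% of all genes were called up and 13.6% down in Dmp1KO, 7.51% and 7.84% in Fgf23cKO, 9.36% and 10.7% in Dmp1KO/Fgf23cKO, and 6.05% and 4.65% in Dmp1KO/Fgf23cKO against Dmp1KO. Of 7 tested partners, the sheddase genes Adam10 (-0.80) and Adam17 (-0.76) were among 3 that fell in Dmp1KO (median -0.62, against -0.038 over all genes), while Lgr4, which encodes an alternative RANKL receptor, fell in Fgf23cKO (-0.79) and Dmp1KO/Fgf23cKO (-0.73). Of 27 genes for inputs to Tnfsf11 and Tnfrsf11b, 1 rose and 2 fell in Dmp1KO (median -0.098), 1 fell in Fgf23cKO (median -0.0083), and 4 rose and 1 fell in Dmp1KO/Fgf23cKO (median 0.050). The prostaglandin receptor gene Ptger2 (-1.96) and the osteoblast transcription factor gene Sp7 (-1.49) fell in Dmp1KO. Ptger2 was at 0.662 to 1.89 CPM in Dmp1KO and 2.94 to 5.62 CPM in WT, on as few as 2 UMIs in a culture. It was at 26.2 to 27.3 CPM in the myeloid-like cells of WT, and the part of myeloid RNA was not tested. Osteoblast/osteocyte-like cells were 5.08% of the stromal-like cells in Dmp1KO and 40.1% in WT, and their part in these changes was not tested. Against Dmp1KO, 4 rose in Dmp1KO/Fgf23cKO, among them the vitamin D receptor gene Vdr (1.31) and the parathyroid hormone receptor gene Pth1r (1.16).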

How the data were processed

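The deposited UMI counts, per gene and per barcode, were made by the authors with Cell Ranger 7.0.1 (mm10 per the submitters' notes) and are not normalized. The authors used the tags to sort barcodes into cultures and to drop multiplets between cultures. Multiplets within a culture remain, and no doublet caller was run. Cells were clustered here without the 6 genes with sctransform 0.4.2 and Seurat 5.3.0 under R 4.3.3 (3000 variable genes, 30 principal components, resolution 0.8, no filter on cells). A cluster was named "X-like" from marker lists when at least 3 markers were detected in at least 25% of its cells and no conflict arose from its 10 leading genes; differences from the study may come from these rebuilt names. For each class, the counts of a tagged culture were added up over at least 10 cells and fitted together for all genotypes in edgeR 4.0.16 (TMM factors, filterByExpr, quasi-likelihood test), with Benjamini-Hochberg adjustment over all genes tested (threshold 0.1). The study describes 3 individual cultures and gives n as 3 mice for each genotype, so the cultures were read as separate animals, although the labels do not name the animal of each. Same-numbered cultures of different genotypes did not deviate together (correlations -0.14 to 0.15 in stromal-like and -0.14 to 0.07 in myeloid-like cells), so numbers were not used as pairs.

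The ratio was compared by exact permutation. Named genes were the 6 members, the deleted genes, for each pathway list at most 3 genes with the largest change past the threshold whose cultures did not overlap, and the 5 genes most like each member over clusters (at least 50 UMIs), of which 1 is not reported here. The members and lists were chosen with earlier results of these data known. Alternatives were DESeq2 1.42.0, other normalization, filters and clustering, thinned cells, other classes, single clusters and each culture left out. Intervals are exact Clopper-Pearson 95% intervals and cover counting error only. The edgeR fits were tested on simulated data. Analyses used Python 3.11.15, numpy 2.4.6, scipy 1.17.1 and pandas 2.3.3.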

Additional observations from a re-analysis of the deposited data

Results flagged for a closer look

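Of the 6 genes, 5 differences were flagged because the change that came with the loss of Fgf23 differed between cultures with and without Dmp1 by an interaction term of the edgeR fit. In stromal-like cells, Csf1 changed by 0.32 without Dmp1 and 1.23 with it, a difference of -0.91 (adjusted p = 0.0213), and Il34 by 0.01 and 2.01, a difference of -2.00 (adjusted p = 0.0603). In myeloid-like cells, Csf1 changed by -1.42 and 0.36, a difference of -1.79 (adjusted p = 0.000175), Csf1r by 0.72 and -0.04, a difference of 0.76 (adjusted p = 5.39e-06), and Tnfrsf11a by 0.52 and 0.25, a difference of 0.27 (adjusted p = 0.0729). The same term was called up for 30.2% and down for 34.6% of all genes in myeloid-like cells. In stromal-like cells it was called down for 8.05% of genes. The number of flags thus says little about the members. The comparison and its flags were added after the data had been seen. The cell makeup of both classes moved with genotype, as did depth, and their part in these differences was not tested beyond the values within clusters and within pre-osteoblast-like cells. Each genotype has fewer than 4 tagged cultures, so no culture could be tested as standing apart from its group.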

How the results depend on the processing

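In stromal-like cells, the changes against WT of Csf1 and Il34 in Fgf23cKO and Dmp1KO/Fgf23cKO kept their direction and their call with DESeq2, RLE factors, other resolutions and without any 1 culture. Without 1 culture in turn, stromal Csf1 was at 0.44 to 0.92 in Dmp1KO, 1.13 to 1.31 in Fgf23cKO, 0.92 to 1.11 in Dmp1KO/Fgf23cKO and 0.11 to 0.58 in Dmp1KO/Fgf23cKO against Dmp1KO, and Il34 at 1.63 to 2.66, 1.78 to 2.51, 1.95 to 2.67 and -0.34 to 0.55. Myeloid-like Csf1r was at -0.68 to -0.50, -0.09 to 0.02, 0.11 to 0.18 and 0.63 to 0.86, Tnfrsf11a at -0.50 to -0.39, 0.16 to 0.37, 0.06 to 0.12 and 0.47 to 0.62, and Csf1 at 2.68 to 3.33, 0.084 to 0.73, 1.26 to 1.90 and -1.55 to -1.23. Tnfsf11 was at -3.50 to -2.04, 0.01 to 1.93, -1.39 to 0.84 and 1.60 to 3.26, Tnfrsf11b at -1.08 to 0.39, -0.99 to 0.17, -0.17 to 0.32 and -0.33 to 1.13, and the log2 ratio at -3.15 to -1.23, -1.39 to 1.59, -1.35 to 0.56 and 1.21 to 2.38. Members called numbered 0 to 3, 2 to 2, 2 to 3 and 0 to 0 in stromal-like cells, and 3 to 3, 0 to 2, 1 to 2 and 3 to 3 in myeloid-like cells. In stromal-like cells Csf1r was at -1.04 to -0.42, -0.65 to -0.18, -0.42 to 0.01 and 0.27 to 0.91, and Tnfrsf11a at -1.06 to 0.03, -0.90 to 0.36, -1.58 to -0.04 and -0.91 to 0.21. Interaction differences were 0.66 to 2.85 (Tnfsf11), -0.19 to 1.28 (Tnfrsf11b), -1.13 to -0.66 (stromal Csf1), -2.50 to -1.47 (Il34), 0.65 to 1.28 (stromal Csf1r), -0.55 to 0.84 (stromal Tnfrsf11a), -2.15 to -1.51 (myeloid Csf1), 0.66 to 0.88 (myeloid Csf1r) and 0.15 to 0.36 (myeloid Tnfrsf11a).

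The cultures share only a replicate number. With the replicate number as a block, stromal Csf1 was at 0.76 in Dmp1KO, 1.23 in Fgf23cKO and 1.01 in Dmp1KO/Fgf23cKO against WT, and no call of a member changed.

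With all cells of a culture in place of a class, Dmp1KO/Fgf23cKO against Dmp1KO gave 4.32 for Tnfsf11, 1.92 for Tnfrsf11b, 1.62 for Il34, 0.23 for Tnfrsf11a and 0.40 for Csf1, with 5 members called. Il34 in Dmp1KO was at -0.055, Tnfrsf11a and Csf1 in Fgf23cKO at 0.0062 and 1.54 (2 called) and Csf1r in Dmp1KO/Fgf23cKO at 0.048. In thinned cells stromal Csf1 was at 0.28, 0.49 and -0.18 in Dmp1KO, Fgf23cKO and Dmp1KO/Fgf23cKO (0 members called in each) and Csf1r in Dmp1KO/Fgf23cKO at 0.024 (1 called). Stromal Il34 was not tested in thinned cells. Without osteoblast/osteocyte-like cells, Dmp1KO gave 0.10 for Csf1 and 1.73 for Il34 (0 called). Csf1r in Dmp1KO/Fgf23cKO against WT lost its call at a threshold of 0.05 (0.13) and without cycling clusters (0.10), leaving 1 member called in each. Tnfrsf11a in Fgf23cKO lost its call with SCTransform v1 (0.17, 0 called), and without a filter on low counts myeloid Csf1 in Fgf23cKO was called (0.37, 3 called). The cause was not tested. The counts of members called, here and without 1 culture in turn, stand without the share of all genes called in the same fits. They are not read as a result about the members.

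As log2 ratios of plain CPM, which leave out the composition factors, the mean per-cell CPM gave 0.46, 0.90 and 0.59 for stromal Csf1 against WT, 2.39 for myeloid Csf1 in Dmp1KO, and -1.04 for Csf1, 0.72 for Tnfrsf11a and 0.81 for Csf1r in Dmp1KO/Fgf23cKO against Dmp1KO. Without the cell with most UMIs of the gene, stromal Csf1 in Fgf23cKO was at 1.03, Il34 at 2.98, 2.55 and 2.75 in Dmp1KO, Fgf23cKO and Dmp1KO/Fgf23cKO, Tnfrsf11a at -0.69 in Dmp1KO and 0.79 in Dmp1KO/Fgf23cKO against Dmp1KO, and Csf1r at -0.84 and 1.01.

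Within clusters 1, 3, 4 and 5, Tnfrsf11a was at -0.049, -0.14, 0.40 and -0.15 in Dmp1KO and at -0.027, 0.039, 0.12 and 0.49 in Dmp1KO/Fgf23cKO against Dmp1KO, and Csf1r at 0.060, 0.13, 0.64 and -0.048, and 0.027, -0.080, -0.050 and 0.19. Against WT, Csf1r in Dmp1KO/Fgf23cKO was at 0.086, 0.045, 0.59 and 0.15, and at 0.11 in cluster 10. Tnfrsf11a in Fgf23cKO was at 0.22, 0.27 and 0.25 in clusters 1, 3 and 4, 0.10 in cluster 9 and 0.58 in cluster 10, and Tnfrsf11a in Dmp1KO/Fgf23cKO was at 0.34 in cluster 5 and -0.40 in cluster 9, and in Dmp1KO at -0.33 in cluster 10. Csf1 was at -0.47 (Dmp1KO) and -1.19 (Dmp1KO/Fgf23cKO) against WT and -0.72 against Dmp1KO in cluster 4, at -0.91 (Fgf23cKO) and -0.073 (Dmp1KO/Fgf23cKO) in cluster 5, and at 0.37 against Dmp1KO in cluster 1. Csf1r in Fgf23cKO was at 0.33 in cluster 5. The interaction was at -0.25, -0.23, -0.13 and -0.075 for Tnfrsf11a and -0.011, -0.31, -0.15 and -0.13 for Csf1r in clusters 1, 3, 4 and 5, and at 0.58 for Csf1 in cluster 4. Small numbers of WT cells in clusters 1, 3 and 4 limit these values, and UMIs of Tnfsf11 and Il34 limit what could be detected.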

Other observations

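Il34 had its highest level of any cluster, 60.6 CPM (169 of the 908 UMIs), in cluster 17, which has 116 cells, is led by Tenm3, Apod and Cdh19 and was left unnamed because a marker of another cell type is among its leading genes. This level is over all samples together. Csf1 was at 240 CPM in cluster 16, also unnamed, at 435 CPM in cluster 12 (pre-osteoblast-like) and at 113 CPM in cluster 15 (osteoblast/osteocyte-like). Among myeloid-like clusters, Csf1 was at 45.9 CPM in cluster 2 and at 2.98 CPM in cluster 0. Csf1r ranged from 301 CPM in cluster 2 and 344 CPM in cluster 4 to 933 CPM in cluster 0.

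The genes whose levels followed each member most closely over the 19 clusters were ranked by Spearman's rho across 16865 genes, as a description over clusters that share libraries. Tnfsf11 was followed by Wfdc21 (rho 0.893), Gm35021, Gm32817, Adrb3 and H19. Tnfrsf11b was followed by Inhbb (rho 0.976), Svep1, Prtg and Cyp1b1, and Il34 by Enho (rho 0.953), Grasp, Phldb1, Plcd3 and Has2. Csf1 was followed by Tcea3 (rho 0.903), Ly75, Tenm4, Mn1 and Fam117a. Among the receptors, Csf1r was followed by Nfam1 (rho 0.972), F630028O10Rik, Slc43a2, Arhgap45 and Arrb2, and Tnfrsf11a by 2610203C22Rik (rho 0.963), Mgat4a, Gpr183, Itga4 and Oxct1.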
